A study of Mus musculus with 6 samples.

Results

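Cells make cholesterol from acetyl-CoA through the mevalonate pathway, whose intermediates also supply the isoprenoid anchors of proteins such as Ras and Rab. The genes of that pathway are switched on by the SREBP transcription factors, which the escort protein SCAP carries from the endoplasmic reticulum when membrane sterol is low and which the INSIG proteins hold back when sterol is high. The LXR nuclear receptors sense oxidised sterols and drive the export pumps ABCA1 and ABCG1 and the ubiquitin ligase MYLIP. In mouse bone marrow, loss of the export pumps is known to enlarge the stem and progenitor pool.

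The RNA of 33 such genes, chosen by name for their roles in cholesterol synthesis, SREBP control, LXR signalling and sterol transport, was examined among 55487 genes measured in long-term hematopoietic stem cells (LT-HSCs). All 33 had a single row in the count table, and all 33 were among the 15298 genes that passed the filter on low counts. The comparison had 3 libraries a group: cells from wild-type, unirradiated mice given carnosine, in which beta-alanine is joined to histidine, and cells from wild-type, unirradiated mice given saline. Cells of the marrow lacking lineage markers, CD34 and Flk2 but carrying c-Kit and Sca-1 had been sorted for bulk sequencing of poly-A RNA. The dose, duration, age and sex are not stated, and the sources used here do not say whether the libraries of a group came from separate mice, so p-values measure the spread between libraries, which may be technical.

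The libraries held 10442112 to 13251332 counts in the carnosine group and 10304539 to 13210166 in the saline group. All 11 stem cell genes examined (Procr, Hlf, Mecom, Fgd5 and others) were read, with a summed level of 638 to 780.1 CPM in carnosine and 622 to 643 CPM in saline. Of these Mecom was the 1 called, and it was higher in carnosine. Hlf measured 360, 210 and 205 CPM in the carnosine libraries, against 215, 209 and 221 CPM in the saline libraries. Carnosine replicate 1 stood far above the rest in Hlf, which raised the summed level of that library, and Hlf was not called. CPM are counts scaled to a common library total. RNA of Flt3, which encodes Flk2, averaged 773 CPM in carnosine and 816 CPM in saline, and Cd34 RNA 859.5 CPM in carnosine and 855 CPM in saline, although the sort took cells negative for both proteins. Levels of other cell types' genes differed between the groups: the summed level of 6 progenitor genes was 823 to 841 CPM in carnosine and 1148 to 1164 CPM in saline (4 called lower), and that of 7 erythroid genes 98.4 to 100.3 CPM in carnosine and 40.97 to 49.9 CPM in saline (3 called higher). The sum of 7 B lineage genes was 333 to 577 CPM in carnosine and 135 to 203 CPM in saline, with Jchain called higher (1.74 on the log2 scale) and Ebf1 called lower. No gene of these lists was at 0 in every library. Immediate early genes, which the handling of tissue can induce, summed to 19388 to 19786 CPM in carnosine and 29514 to 30130.0 CPM in saline, with 9 of 10 called lower and 1 called higher. All 13 mitochondrially encoded protein genes had positive log2 fold changes, 10 of them called higher. Over all 15298 genes tested, 8.39% were called lower, 9.51% were called higher and 7673 had a positive log2 fold change. What part the differences in these lists have in the sterol gene results was not tested. In bulk RNA, fewer cells of a type and less RNA per cell cannot be told apart.

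Of the 33 genes, 13 fell and 0 rose in carnosine-treated LT-HSCs by edgeR's quasi-likelihood test (adjusted p under 0.05 over all genes tested). At an unadjusted p under 0.05, 16 were lower and 0 higher, with no share of all genes counted at that looser threshold. At the adjusted threshold, the share called lower was 39.4% of the 33, against 8.39% of all genes tested. The share called higher was 0 against 9.51%. The 33 were chosen with earlier results of these data known, so these shares are a description and not a test. Among the 13 the change ran from -14.6% (Stard4) to -54.6% (Msmo1). The median log2 fold change, carnosine over saline, was -0.23 for the 33 genes and 0.00 for all genes tested. In 19 of the 33 every carnosine library lay below every saline library, a pattern found in 18.7% of all genes tested. In 1, Ebp, every carnosine library lay above, as in 20.0% of all genes. Among the 13 that fell, 8 passed the threshold in each of the 16 alternative analyses run: the enzymes Idi1, Lss, Cyp51 and Msmo1, the sensor Insig1, the pumps Abca1 and Abcg1 and the carrier Stard4. The other 5 (Mvd, Fdft1, Sqle, Nr1h2 and Mylip) kept a negative fold change in each of them but lost the call in some.

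**Figure D1:**
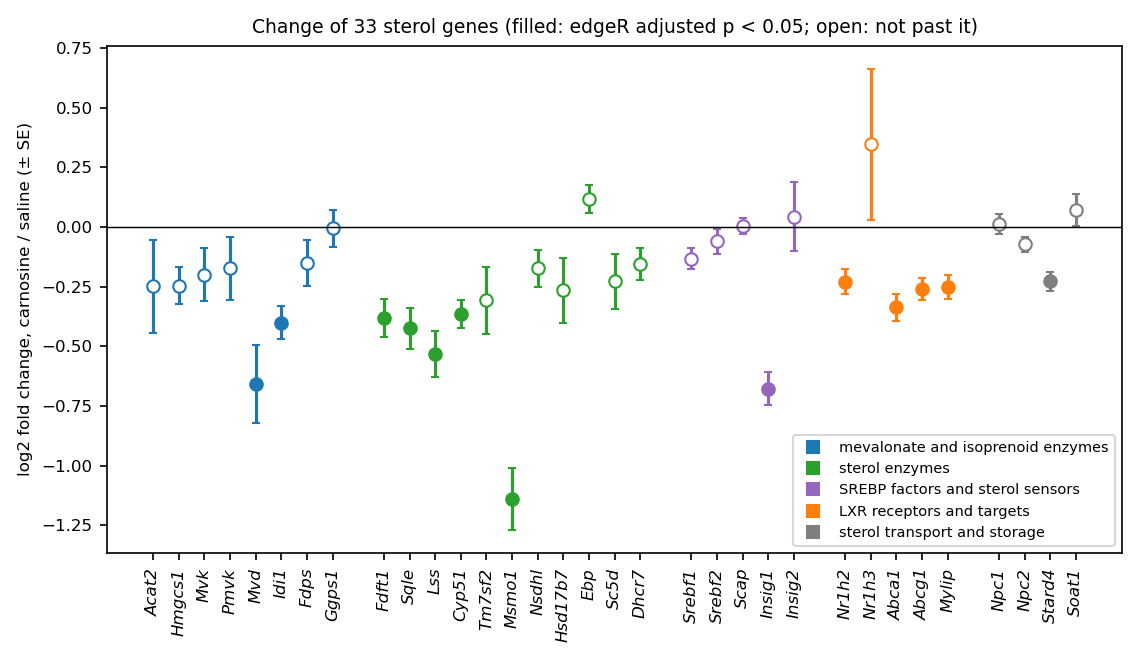
Log2 fold change of each gene, carnosine over saline, with its standard error (y axis), ordered by role and, for enzymes, by step of the pathway (x axis); filled points passed an adjusted p of 0.05 and open points did not. The 13 filled points all lie below 0, and Msmo1 is the lowest at -1.14.

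The enzymes that turn acetyl-CoA into isoprenoid units come first in the pathway. Of these 8 genes 2 fell, Mvd and Idi1, and all 8 had negative fold changes (median -0.22). Their summed level was 147 to 166 CPM in carnosine and 181 to 194 CPM in saline. Acat2, a thiolase that joins acetyl-CoA units, measured 26.7, 16.2 and 23.5 CPM in the carnosine libraries, against 29.4, 28.8 and 21.3 CPM in the saline libraries. Carnosine replicate 2 was the lowest library, the groups overlapped, and the change did not pass (log2 fold change -0.25, SE 0.20, edgeR adjusted p = 0.423). Its neighbour and near copy Acat3 was much lower (2.67 CPM in carnosine and 2.61 CPM in saline). Hmgcs1, the synthase that condenses acetyl-CoA units into HMG-CoA, measured 36.4, 34.9 and 38.7 CPM in the carnosine libraries, against 41.7, 40.97 and 47.6 CPM in the saline libraries. The groups did not overlap, yet the difference missed the threshold (log2 fold change -0.25, SE 0.08, edgeR adjusted p = 0.0673). The kinases that phosphorylate mevalonate, Mvk and Pmvk, gave log2 fold changes of -0.20 and -0.17, with overlapping groups (edgeR adjusted p = 0.259 and 0.403).

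Mvd (chr8:122433601-122443422 in GRCm38) encodes the decarboxylase that makes isopentenyl diphosphate, the basic isoprenoid unit. It measured 5.05, 6.72 and 5.52 CPM in the carnosine libraries, against 10.7, 8.14 and 8.39 CPM in the saline libraries. Every carnosine library was below every saline library, with saline replicate 1 the highest (log2 fold change -0.66, SE 0.16, edgeR adjusted p = 0.0315). Mvd rested on few reads, 61, 70 and 73 reads in the carnosine libraries, against 111, 84 and 111 in the saline libraries, and its call was lost without any of 5 single libraries, carnosine replicate 2 being the exception (adjusted p up to 0.0932 over the alternatives). Idi1 (chr13:8885501-8892451), the isomerase that readies this unit for chain growth, was steadier. It measured 25.3, 25.3 and 27.8 CPM in the carnosine libraries, against 33.01, 35.8 and 34.8 CPM in the saline libraries, and all carnosine libraries lay well below the lowest saline library (log2 fold change -0.40, SE 0.07, edgeR adjusted p = 0.00793). The synthases that extend the chain did not pass the threshold. Fdps, which makes farnesyl diphosphate at the fork between sterols and isoprenoids, averaged 16.2 ± 1.53 CPM in carnosine and 18.05 ± 1.18 CPM in saline (SD, n = 3 each) (log2 fold change -0.15, SE 0.10, edgeR adjusted p = 0.323; 95% interval -0.38 to 0.08). Ggps1, which makes the geranylgeranyl donor for protein anchors and lies outside the route to sterols, averaged 27.1 ± 0.911 CPM in carnosine and 27.2 ± 2.19 CPM in saline (SD, n = 3 each). The 95% interval of its log2 fold change ran from -0.19 to 0.18, and its sign turned positive with no filter on low counts and with limma-voom. Fdps shares 26.7% of its exon bases with the same-strand gene Gm43738 and Ggps1 5.44% with the opposite-strand gene Arid4b, which rose (log2 fold change 0.26, edgeR adjusted p = 0.00694), so reads could be split or shared there.

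The sterol-committed enzymes showed more calls. Of 11 genes 5 fell and 0 rose, 10 had negative fold changes, and the median was -0.31. Their summed level was 207 to 213 CPM in carnosine and 256 to 258 CPM in saline, with no overlap between the groups. The falls took in the first steps in order, Fdft1, Sqle, Lss and Cyp51, and then Msmo1. Fdft1 (chr14:63145150-63179578), squalene synthase and the first enzyme committed to sterol, measured 15.4, 16.8 and 15.1 CPM in the carnosine libraries, against 19.5, 20.5 and 21.4 CPM in the saline libraries. The groups were separate (log2 fold change -0.38, SE 0.08, edgeR adjusted p = 0.0175), but the call was lost in DESeq2 and without any of 4 single libraries (adjusted p up to 0.0675). Its exons share 774 bases, 18.3% of their length, with Ctsb on the opposite strand. Ctsb was higher in every carnosine library (199.7 CPM in carnosine and 183 CPM in saline; log2 fold change 0.12, edgeR adjusted p = 0.103).

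Sqle (chr15:59315077-59331192), which epoxidises squalene and is a slow, regulated step, measured 26.2, 28.3 and 26.5 CPM in the carnosine libraries, against 36.8, 32.4 and 39.4 CPM in the saline libraries. The carnosine libraries were close together and the saline libraries spread more widely above them (log2 fold change -0.42, SE 0.09, edgeR adjusted p = 0.0152), and the call was lost without any of 3 single libraries (adjusted p up to 0.0534). Lss (chr10:76531588-76557138), the cyclase that folds the epoxide into lanosterol, measured 15.8, 17.7 and 18.99 CPM in the carnosine libraries, against 23.3, 26.8 and 25.7 CPM in the saline libraries. No carnosine library reached the lowest saline library (log2 fold change -0.53, SE 0.09, edgeR adjusted p = 0.00912). Cyp51 (chr5:4081145-4104746), the cytochrome that strips a methyl group from lanosterol, measured 31.5, 34.2 and 33.4 CPM in the carnosine libraries, against 42.8, 43.3 and 41.5 CPM in the saline libraries. Its groups were each tight and far apart (log2 fold change -0.36, SE 0.06, edgeR adjusted p = 0.00582). The opposite-strand neighbour Akap9 shares 3.76% of Cyp51's exon bases and also fell (log2 fold change -0.18, edgeR adjusted p = 0.0166).

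Msmo1 (chr8:64718139-64733792), the methyl sterol monooxygenase that starts removal of the paired methyl groups, had the largest fall among the 33 genes. It measured 5.46, 5.85 and 6.96 CPM in the carnosine libraries, against 14.9, 12.9 and 12.7 CPM in the saline libraries. Every carnosine library was far below every saline library. The change (log2 fold change -1.14, SE 0.13, edgeR adjusted p = 0.00132) stood on 66, 61 and 92 reads in the carnosine libraries, against 155, 133 and 168 in the saline libraries. On log2(FPKM + 1), where a pseudocount shrinks low genes, the difference was -0.55 for Msmo1 and -0.29 for Lss, both still past the threshold. Of all genes tested, 0.817% had a lower fold change than Msmo1. The 95% interval of Msmo1 (-1.44 to -0.84) did not overlap those of Cyp51 (-0.50 to -0.23), Sqle (-0.62 to -0.22) and Lss (-0.75 to -0.31). It overlapped that of Mvd (-1.04 to -0.27) and just reached that of the sensor Insig1 (-0.84 to -0.52). Differences between genes were not tested.

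The 6 remaining sterol enzymes did not pass. Nsdhl and Hsd17b7, which complete the demethylation that Msmo1 begins, had log2 fold changes of -0.17 (95% interval -0.35 to 0.01) and -0.27 (-0.58 to 0.05). Tm7sf2, a sterol reductase, had -0.31 (-0.64 to 0.02) and shares 12.1% of its exon bases with the same-strand gene Vps51. The late enzymes Sc5d, a desaturase, and Dhcr7, the final reductase, had -0.23 (-0.50 to 0.04) and -0.15 (-0.31 to -0.00). In Nsdhl, Tm7sf2 and Dhcr7 the groups did not overlap. Ebp, the sterol isomerase, was the exception in direction: it measured 33.4, 32.5 and 33.5 CPM in the carnosine libraries, against 30.3, 29.7 and 31.7 CPM in the saline libraries. All carnosine libraries were above all saline libraries, by a small margin that did not pass (log2 fold change 0.12, SE 0.06, edgeR adjusted p = 0.218).

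**Figure D2:**
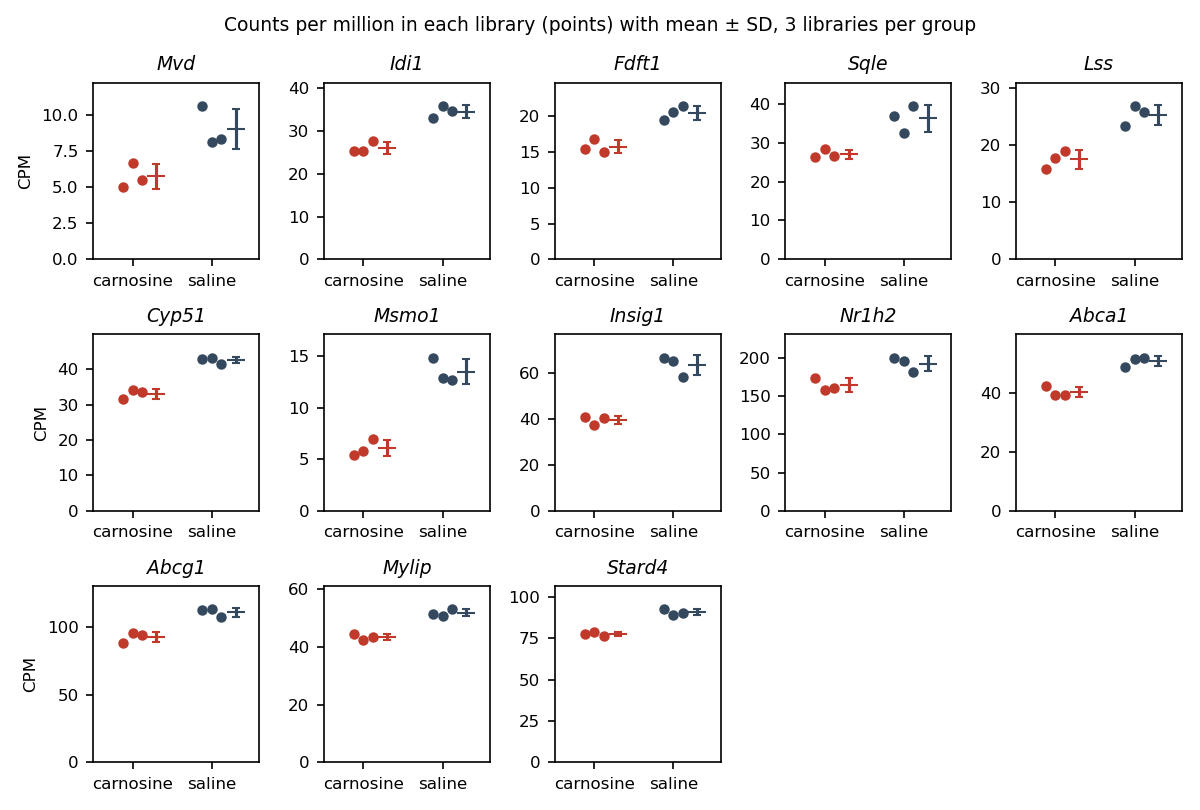
CPM (y axis, from 0) of the 13 genes that fell, in each of 3 carnosine and 3 saline libraries (points), with the mean and SD beside them. In all 13 the 3 carnosine points lie below the 3 saline points, and Msmo1 has the largest fold change (mean 6.09 CPM in carnosine against 13.5 CPM in saline).

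The promoter letters of genes that moved together are shown for the enzymes Mvd, Lss and Cyp51 and the sensor Insig1, which fell, and for Hmgcs1, which did not pass. RefSeq promoter windows on GRCm38.p6 were matched to 27 of the 33 genes. Fdps, Fdft1, Sqle, Abcg1, Npc1 and Stard4 were not matched. Each stretch lies upstream of the annotated gene, ending at the last base before it except for Hmgcs1, whose stretch ends at a RefSeq start a little farther upstream. Each reads 5′ to 3′ on the gene's strand, and has in capitals each match to the sterol response element TCACNCCAC, the CCAAT box CCAAT and the E-box CACGTG on either strand. No motif's letters contain those of another. SREBP is known to bind sterol response elements beside NF-Y, the factor that binds CCAAT. The stretches lie at chr8:122443423-122443672 (minus strand), chr10:76531355-76531587 (plus), chr5:4104747-4104947 (minus), chr5:28071162-28071362 (plus) and chr13:119690101-119690350 (plus).
Mvd: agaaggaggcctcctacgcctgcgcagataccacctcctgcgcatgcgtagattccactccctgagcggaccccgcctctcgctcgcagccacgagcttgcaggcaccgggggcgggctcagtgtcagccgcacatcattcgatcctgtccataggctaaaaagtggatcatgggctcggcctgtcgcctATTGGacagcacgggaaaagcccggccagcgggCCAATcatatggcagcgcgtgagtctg
Lss: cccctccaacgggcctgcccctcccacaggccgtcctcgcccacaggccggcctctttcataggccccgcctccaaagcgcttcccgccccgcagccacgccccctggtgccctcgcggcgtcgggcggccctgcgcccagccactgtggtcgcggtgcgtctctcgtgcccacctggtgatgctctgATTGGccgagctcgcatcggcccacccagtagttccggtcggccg
Cyp51: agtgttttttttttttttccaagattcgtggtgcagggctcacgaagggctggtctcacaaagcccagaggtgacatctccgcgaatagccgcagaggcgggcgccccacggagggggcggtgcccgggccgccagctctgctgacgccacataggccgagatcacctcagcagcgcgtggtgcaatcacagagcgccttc
Insig1: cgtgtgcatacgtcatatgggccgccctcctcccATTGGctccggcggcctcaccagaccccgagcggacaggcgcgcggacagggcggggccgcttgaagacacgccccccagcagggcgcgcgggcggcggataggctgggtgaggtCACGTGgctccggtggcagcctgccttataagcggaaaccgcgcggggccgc
Hmgcs1: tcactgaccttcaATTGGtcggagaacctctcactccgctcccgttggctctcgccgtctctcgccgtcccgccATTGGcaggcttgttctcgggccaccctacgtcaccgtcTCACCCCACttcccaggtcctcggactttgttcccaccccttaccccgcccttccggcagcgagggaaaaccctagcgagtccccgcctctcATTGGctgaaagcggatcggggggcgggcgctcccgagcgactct

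Hmgcs1 was the 1 gene of the 27 with the exact sterol response element in the 250 bases before a RefSeq start. That is 1 of their 36 windows, against 1.05% of 32851 windows of all genes. CCAAT was found in 22 of the 27 genes, and in 23 of their 36 windows, against 33.8% of all windows. The E-box was found in 6 of the 36 windows, against 6.02% of all windows, and the motif GGGCGG, known to bind Sp1, in 25 of the 36, against 32.7%. For the DR4 repeat, known to bind LXR, a single exact form was searched, and it was in 0 of the 36 windows, against 0.0365%. That form was in only 12 of the 32851 windows of all genes, so the 0 cannot show that these windows lack LXR sites. Looser forms of the repeat were not searched. These letters describe the windows only. Of the 5 stretches, Mvd has 2 CCAAT boxes, Lss 1 and Hmgcs1 3, while Insig1 has 1 CCAAT box and 1 E-box. The Cyp51 stretch holds none of the 3 motifs in capitals. The full 250-base window of Cyp51 does hold 1 CCAAT box, 29 bases before the RefSeq start. That box lies inside the annotated gene, in the part left out of the stretch.

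Among the SREBP factors and sterol sensors, 1 of 5 genes fell. Insig1 (chr5:28071363-28078662), which retains the SCAP and SREBP complex in the endoplasmic reticulum and is itself an SREBP target, measured 40.8, 37.5 and 40.7 CPM in the carnosine libraries, against 66.9, 65.2 and 58.4 CPM in the saline libraries. The carnosine libraries were tightly grouped and far below the lowest saline library (log2 fold change -0.68, SE 0.07, edgeR adjusted p = 0.000807), a change of -37.5%. Its paralog Insig2, which is known to hold SCAP in the same way, measured 8.61, 9.21 and 9.53 CPM in the carnosine libraries, against 10.3, 7.17 and 9.07 CPM in the saline libraries. The groups overlapped, and the 95% interval of its log2 fold change was -0.30 to 0.38, against -0.84 to -0.52 for Insig1.

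Neither the factors nor their escort passed the threshold. Srebf2, whose product mainly drives cholesterol genes, measured 371, 350.0 and 329 CPM in the carnosine libraries, against 356, 387 and 351 CPM in the saline libraries. The groups overlapped, and the 95% interval of the log2 fold change (-0.19 to 0.07) lay above the fold change estimates of the 13 genes that fell. It overlapped the 95% intervals of Stard4 (-0.32 to -0.14), Nr1h2 (-0.35 to -0.11), Mylip (-0.37 to -0.13) and Abcg1 (-0.37 to -0.15). Differences between genes were not tested. Srebf1, whose product mainly drives fatty acid genes, measured 105, 97.7 and 102 CPM in the carnosine libraries, against 109, 110.0 and 115 CPM in the saline libraries. The carnosine libraries were all lower, by a margin that missed the threshold (log2 fold change -0.13, SE 0.04, edgeR adjusted p = 0.0721). Scap measured 142, 137 and 141 CPM in the carnosine libraries, against 139, 138 and 142 CPM in the saline libraries, with overlapping groups and a 95% interval of -0.07 to 0.08. These are RNA levels, and SREBP activity depends on cleavage of the protein, which was not measured.

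LXR signalling genes had 4 falls among 5. Nr1h2 (chr7:44549616-44553951), which encodes the widely expressed receptor LXR beta, measured 174, 157 and 161 CPM in the carnosine libraries, against 200.2, 195 and 181 CPM in the saline libraries. The groups were separate by a small gap (log2 fold change -0.23, SE 0.05, edgeR adjusted p = 0.0230), and the call was lost without any of 4 single libraries (adjusted p up to 0.0774). Nr1h3, which encodes LXR alpha, the receptor prominent in macrophages and liver, was near the limit of detection, with 12, 14 and 17 reads in the carnosine libraries, against 14, 7 and 11 in the saline libraries. Its groups overlapped, and the 95% interval of -0.39 to 1.09 leaves both a fall and a rise possible at this depth.

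Abca1 (chr4:53030787-53159895), which loads cholesterol onto apolipoprotein A-I, measured 42.1, 39.2 and 39.2 CPM in the carnosine libraries, against 48.7, 51.4 and 51.9 CPM in the saline libraries. Each group was tight, and the gap between them exceeded the spread within either (log2 fold change -0.34, SE 0.06, edgeR adjusted p = 0.00773). Abcg1 (chr17:31057675-31117988), which exports sterol to HDL particles, measured 88.3, 95.7 and 93.9 CPM in the carnosine libraries, against 112, 113 and 107 CPM in the saline libraries. The groups were again apart (log2 fold change -0.26, SE 0.05, edgeR adjusted p = 0.00922). Mylip (chr13:45389742-45412022), whose product tags lipoprotein receptors for degradation, measured 44.5, 42.5 and 43.5 CPM in the carnosine libraries, against 51.3, 50.9 and 53.2 CPM in the saline libraries. It fell by a similar amount (log2 fold change -0.25, SE 0.05, edgeR adjusted p = 0.0148), and the call was lost in DESeq2 and without saline replicate 3 (adjusted p = 0.0704 and 0.0554). Macrophages are known to express these pumps. Of 10 monocyte and macrophage genes, summed at 165 to 182 CPM in carnosine and 193 to 207 CPM in saline, 7 were tested, 1 was called lower and 0 higher. The 1 called was Csf1r, the receptor for macrophage growth factor (11.8 CPM in carnosine and 25.7 CPM in saline; log2 fold change -1.12, SE 0.08, edgeR adjusted p = 0.000112). Of the 7 tested, 5 had negative log2 fold changes and 2 positive, Mrc1 (0.17) and Cd14 (0.33), neither called. Lyz2 had the most counts of the list (131 CPM in carnosine and 140 CPM in saline) and was not called (log2 fold change -0.09). The defining macrophage gene Adgre1 had 5, 3 and 1 reads in the carnosine libraries, against 14, 8 and 7 in the saline libraries. Fcgr1 had 10 reads in all carnosine libraries and 11 in all saline libraries, and Marco 8 in each group. These 3 genes were too low to test, and what part such cells have in these falls was not tested.

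Of 4 transport and storage genes 1 fell and 0 rose. Stard4 (chr18:33199355-33213862), a soluble carrier that moves cholesterol between membranes and is an SREBP target, measured 77.5, 78.8 and 76.4 CPM in the carnosine libraries, against 92.6, 89.2 and 90.4 CPM in the saline libraries. Its spread was narrow and the groups were well apart (log2 fold change -0.23, SE 0.04, edgeR adjusted p = 0.00800). Npc2, which hands cholesterol from lysosomal lipoproteins to NPC1, measured 167, 171 and 176 CPM in the carnosine libraries, against 183, 180.2 and 178 CPM in the saline libraries. The carnosine libraries were all lower, but the difference was small and did not pass (log2 fold change -0.07, SE 0.03, edgeR adjusted p = 0.161). Npc1, the membrane partner that exports sterol from lysosomes, averaged 82.1 ± 1.28 CPM in carnosine and 81.2 ± 2.36 CPM in saline (SD, n = 3 each), with a 95% interval of -0.08 to 0.11 for the log2 fold change. Npc1 shares 4.52% of its exon bases with the opposite-strand gene Rmc1, which fell (log2 fold change -0.43, edgeR adjusted p = 0.00675). Soat1, which esterifies cholesterol for storage, averaged 33.5 ± 2.17 CPM in carnosine and 31.8 ± 0.869 CPM in saline (SD, n = 3 each) (95% interval -0.09 to 0.23).

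**Figure D3:**
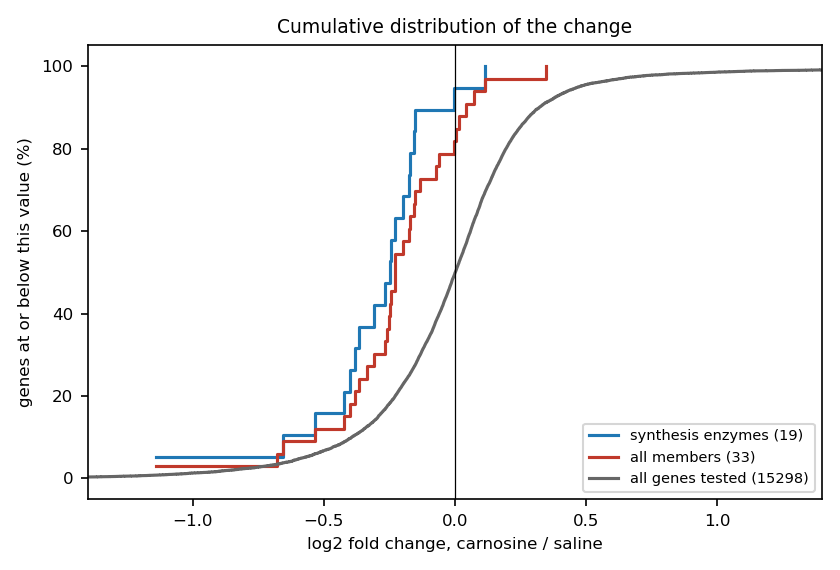
Cumulative share of genes (y axis, percent) at or below each log2 fold change, carnosine over saline (x axis, cut at 1.4 on either side), for the 19 synthesis enzymes, the 33 genes and the 15298 genes tested. The curves of the enzymes and of the 33 genes lie left of the curve of all genes over most of their range, with medians of -0.25, -0.23 and 0.00.

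Levels were compared between genes per kilobase of merged exon, because the deposited FPKM divides by the summed length of all distinct exons, counting shared bases repeatedly (within 1% for 97.9% of 14532 genes). That divisor is 2.90 times the merged exon length for Nr1h2 and 1.02 times for Abca1. In CPM per kilobase, Nr1h2 was the highest of the 33 genes, at 48.9 ± 2.61 in carnosine and 57.3 ± 2.89 in saline (SD, n = 3 each), and Srebf2 followed at 48.7 ± 2.95 in carnosine and 50.8 ± 2.75 in saline. The spread of these neighbours overlapped in carnosine and did not in saline. Npc2 came next at 31.5 ± 0.755 in carnosine and 33.2 ± 0.432 in saline, then a group made of Insig1, Srebf1 and Scap. In saline Insig1 (12.8 ± 0.602 in carnosine and 20.5 ± 1.44 in saline) lay beside Srebf1 (18.03 ± 0.622 in carnosine and 19.8 ± 0.554 in saline), their spreads overlapping, while in carnosine it was below both Srebf1 and Scap. Among the enzymes Ebp was the highest (14.4 ± 0.235 in carnosine and 13.2 ± 0.432 in saline) and Tm7sf2 the lowest in saline (1.154 ± 0.101 in carnosine and 1.43 ± 0.151 in saline), its spread there overlapping that of Hsd17b7 (1.53 ± 0.102 in carnosine and 1.83 ± 0.265 in saline), while Msmo1 (0.991 ± 0.126 in carnosine and 2.19 ± 0.196 in saline) overlapped Tm7sf2 in spread in carnosine and lay above it in saline. Nr1h3 was the lowest of all at 0.480 ± 0.0747 in carnosine and 0.378 ± 0.138 in saline.

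**Figure D4:**
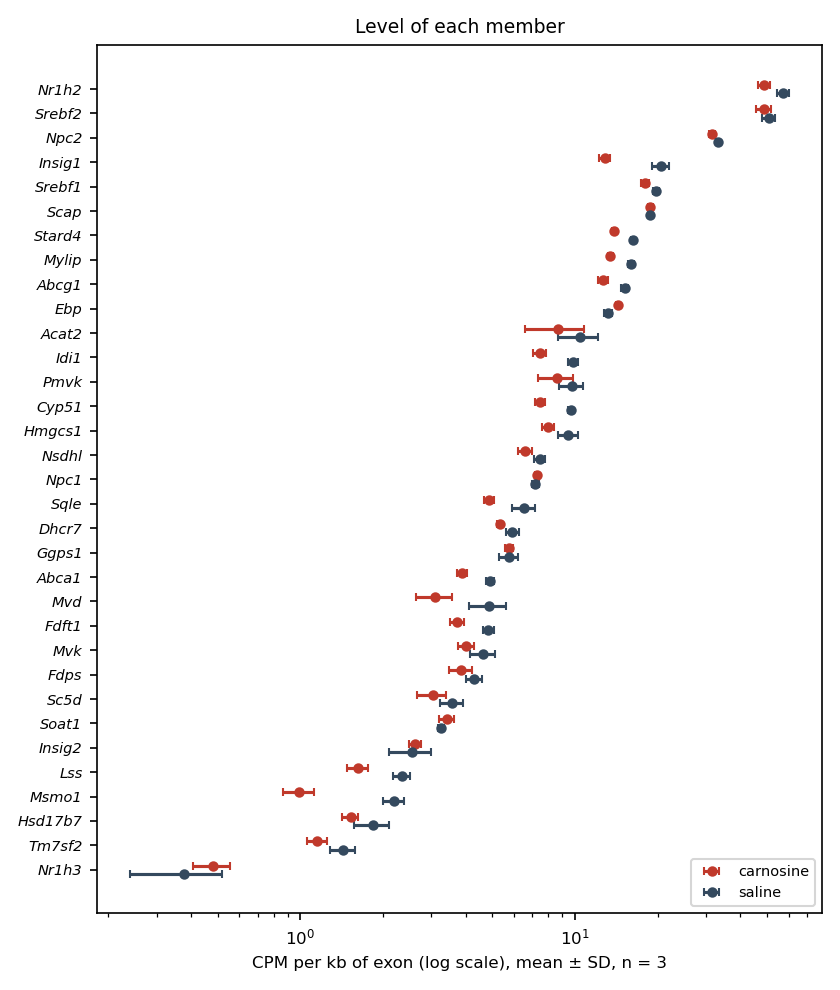
Level of each of the 33 genes in CPM per kilobase of merged exon (x axis, log scale), mean and SD of 3 carnosine and 3 saline libraries, ordered by the saline mean. Nr1h2 and Srebf2 are the highest and Nr1h3 the lowest.

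Genes next to the pathway were followed in 8 further lists with 100 genes, of which 93 were tested, 4 fell and 13 rose (4.30% lower and 14.0% higher, against 8.39% and 9.51% of all genes). Fatty acid synthesis genes driven by SREBP gave 1 fall and 2 rises among 15 tested (median 0.06). The synthase Fasn averaged 216 ± 4.36 CPM in carnosine and 251 ± 3.49 CPM in saline (SD, n = 3 each) and fell (log2 fold change -0.22, SE 0.03, edgeR adjusted p = 0.00247). The elongase Elovl5 rose (log2 fold change 0.26, SE 0.04, edgeR adjusted p = 0.00406), as did malic enzyme Me1 (log2 fold change 0.91, SE 0.25, edgeR adjusted p = 0.0442). Me1 rested on 74 reads in all carnosine libraries and 37 in all saline libraries. The desaturase Scd2 measured 80.6, 84.8 and 105 CPM in the carnosine libraries, against 121, 361 and 97.1 CPM in the saline libraries. Saline replicate 2 stood far above the rest, the groups overlapped and the difference did not pass (log2 fold change -1.09, SE 0.46, edgeR adjusted p = 0.148).

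Among 8 partners of the sterol enzymes, 1 rose, the cytochrome b5 reductase Cyb5r3 (log2 fold change 0.29, SE 0.05, edgeR adjusted p = 0.00874), and 0 fell. Of 14 genes for SREBP processing and sterol-regulated degradation 4 rose and 0 fell (median 0.06). They included the extraction enzyme Vcp (log2 fold change 0.14) with its adaptor Nploc4 (0.22), and the sterol-related membrane protein Pgrmc1 (0.25), with edgeR adjusted p = 0.0120, 0.0285 and 0.0116. The proteases that cut SREBP, Mbtps1 and Mbtps2, did not pass (edgeR adjusted p = 0.445 and 0.373).

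Of 9 tested LXR partners, corepressors and further targets 2 rose and 0 fell (median 0.24). The receptor partner Rxra averaged 38.6 ± 0.272 CPM in carnosine and 31.8 ± 2.57 CPM in saline (SD, n = 3 each) (log2 fold change 0.28, SE 0.07, edgeR adjusted p = 0.0358). The pump Abcg4, a relative of Abcg1, averaged 1.95 ± 0.225 CPM in carnosine and 0.831 ± 0.120 CPM in saline (SD, n = 3 each) and rose (log2 fold change 1.22, SE 0.23, edgeR adjusted p = 0.0124), on 69 reads in all carnosine libraries and 28 in all saline libraries. Of 7 tested oxysterol and side-chain oxidation enzymes 0 were called, and 0 had an unadjusted p under 0.05. Among 18 tested sterol carriers, esterases and contact-site proteins 2 fell, the lipid carriers Osbpl5 (log2 fold change -0.43, SE 0.07, edgeR adjusted p = 0.00799) and Osbpl7 (log2 fold change -0.28, SE 0.07, edgeR adjusted p = 0.0255). In the same list 2 rose, the carrier Osbpl9 (log2 fold change 0.25, SE 0.04, edgeR adjusted p = 0.00605) and the ester hydrolase Nceh1 (log2 fold change 0.18, SE 0.04, edgeR adjusted p = 0.0240).

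Isoprenoid-using enzymes gave 1 rise, the protease Zmpste24 that trims prenylated lamin A (log2 fold change 0.24, SE 0.05, edgeR adjusted p = 0.0114), and 0 falls among 16. Of 6 lipoprotein receptor genes 1 fell and 1 rose. Vldlr, whose protein MYLIP is known to degrade, measured 64.2, 66.98 and 66.9 CPM in the carnosine libraries, against 94.99, 103 and 99.7 CPM in the saline libraries. The groups were far apart (log2 fold change -0.59, SE 0.05, edgeR adjusted p = 0.000237). The scavenging receptor Lrp1 rose and averaged 49.7 ± 2.65 CPM in carnosine and 41.7 ± 0.706 CPM in saline (SD, n = 3 each) (log2 fold change 0.25, SE 0.06, edgeR adjusted p = 0.0241).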

How the data were processed

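RNA of sorted LT-HSCs was sequenced as stranded, paired-end, poly-A-selected libraries, per the labels' protocols. Per the submitters' processing notes, the tools were HISAT2, StringTie, edgeR and CASAVA 1.8, on GRCm38, with no order or options. How strand and multi-mapped reads were treated is not stated there. The authors deposited a raw count and an FPKM value per gene and library. The counts are the main data here.

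Counts were scaled by TMM, filtered with filterByExpr and tested with edgeR 4.0.16 (R 4.3.3) quasi-likelihood, two-sided, with Benjamini-Hochberg adjustment over 15298 genes. Intervals are 95% intervals of the fit. In simulated data on 15101 genes, 50 genes, none of low level, were changed at each size. The test recovered 18.0% of genes changed by 0.3 (log2), 58.0% at 0.5 and 98.0% at 1. False calls made up 8.67% of all calls. The real data had 2738 genes called (17.9%), far more than were changed in the simulation, so these rates may not carry over to them. Totals of 10304539 to 13251332 counts limit low genes: 3 counts, the limit that a count of 0 allows, are 0.227 to 0.291 CPM (counting error only). Replicates of a group differed by more than sampling noise (chi-square per degree of freedom 5.19 to 6.34 within groups).

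Exon overlaps came from GENCODE M21, whose start and end matched those of all 33 genes, and promoter windows from RefSeq (GRCm38.p6). Members, lists and alternatives were chosen with earlier results of these data known. Genes named with values per library are those past the threshold and the 2 with the highest FPKM in each role group, plus Acat2, Srebf1, Insig2 and Nr1h3, added after their values were seen. In the neighbouring lists the genes past the threshold are named, up to 4 a list, except for items that are not reported here. Scd2, Mbtps1 and Mbtps2 were added after their values were seen. Alternatives were DESeq2 1.42.0, limma 3.58.1 (voom, and limma-trend on log2 FPKM with pseudocounts of 1 and 0.1), other scalings and filters, a replicate block, and leaving out each library.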

Additional observations from a re-analysis of the deposited data

How the results depend on the processing

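Under the 16 alternatives, the number of the 33 genes called lower was 13 with each other scaling, each other filter, limma-voom and both FPKM fits, 11 with DESeq2 and 9 to 12 when 1 library was left out, and 0 were called higher in any. All calls made under an alternative were among the 13. The share called lower ranged from 27.3% to 39.4% of the 33 genes and from 3.04% to 9.16% of all genes. The median log2 fold change was -0.25 to -0.19 with 1 library left out and -0.16 with limma-trend on log2(FPKM + 1), where the pseudocount shrinks low values. Over all genes, DESeq2 called 775 lower and 773 higher, against 1283 and 1455, and leaving out 1 library gave 801 to 883 lower and 932 to 1009 higher, with fewer samples. Signs turned for 4 genes near 0, none called. Scap gave -0.0115 with upper quartile scaling, -0.00262 with library totals only, -0.00199 and -0.00211 with FPKM pseudocounts of 1 and 0.1, and -0.00862 to 0.0226 with 1 library left out. Ggps1 gave 0.00932 with no filter, 0.00268 with limma-voom and -0.0387 to 0.0641 with 1 library left out. Npc1 gave -0.00077 with upper quartile scaling and -0.00203 to 0.0381 with 1 library left out, and Insig2 gave -0.0807 to 0.16.

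The labels number replicates 1 to 3 in both groups without saying that a number marks a shared mouse or day. Deviations of same-numbered libraries correlated at -0.0686 to 0.0188, and those of differently numbered libraries across the groups at -0.0215 to 0.0697. From 3 libraries a group, these values cannot decide whether a number marks a shared mouse or day. With a replicate block the fit called 11 of the 33 genes lower (Mvd and Fdft1 were not called) and 0 higher, a median of -0.23, and 810 lower and 946 higher over all genes. Depth limits Nr1h3, whose libraries held 7 to 17 reads.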
